A study of Mus musculus with 10 samples.

Results

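Schlafen genes form a family of interferon-responsive mouse genes, and 9 genes with a symbol of the form Slfn plus a digit were measured among 19938 genes in subcutaneous MC38 tumors. The members were found by symbol alone: Slfn1, Slfn2, Slfn3, Slfn4, Slfn5, Slfn8, Slfn9, Slfn10-ps and the opposite-strand transcript Slfn5os. Each had 1 probe that carries a single gene symbol, so the choice of the probe with the highest mean over the 10 arrays had no effect. The family was put forward with results of this comparison known, so the counts below describe these genes and are not independent evidence. MC38 is a colon carcinoma line of mice, here grown under the skin of C57BL/6 mice to tumors of about 40 mm2. In the CpG1826 group, 5 tumors (mice 50, 58, 183, 189 and 595) received 50 µg of the oligonucleotide CpG1826 in a volume of 50 µL of PBS and were taken after 6 h. In the PBS group, 5 tumors (mice 26, 29, 482, 592 and 661) were injected with PBS, and the same schedule was assumed for them because the labels describe it for the CpG1826 injection only. CpG1826 is a synthetic DNA oligonucleotide whose unmethylated CpG dinucleotides are recognised by TLR9, a DNA sensor in the endosomes of immune cells. The labels give no age or sex of the mice.

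Mouse Schlafen proteins share an N-terminal core and are grouped by length. The short forms include Slfn1 and Slfn2, the intermediate forms Slfn3 and Slfn4, and the long forms Slfn5, Slfn8 and Slfn9, whose C-terminal part resembles a helicase. They are known for restraining proliferation of lymphocytes and myeloid cells, and several family members bind or cleave transfer RNA. Type I interferon, made by infected or TLR-stimulated cells, raises transcription of many Schlafen genes, and TLR ligands raise Slfn4 in macrophages.

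Most Schlafen transcripts were more abundant in CpG1826 tumors than in PBS tumors 6 h after injection, and Slfn4 differed most. Of the 9 genes, 7 passed the test over all genes as higher and 0 as lower (limma, Benjamini-Hochberg adjusted p under 0.05), while 3.56% of all genes tested passed as higher and 1.10% as lower. The number of members higher was 4 when PBS mouse 29 or 661, or mouse 58, 183 or 595 of the CpG1826 group, was left out, and 5 or 6 without any other single mouse. At an unadjusted p under 0.05, 8 members passed, against 15.6% of all genes. The median log2 fold change, CpG1826 over PBS, was 0.60 over the 9 genes and -0.02 over all genes. For Slfn2, Slfn3, Slfn4, Slfn8 and Slfn10-ps, every CpG1826 tumor lay above every PBS tumor, which was the case for 4.35% of all genes, and for 0 members every CpG1826 tumor lay below, against 2.42% of all genes. At an adjusted p under 0.01, Slfn2, Slfn4, Slfn8 and Slfn10-ps passed as higher (limma), as did 2.04% of all genes. The values of these genes are log2 expression values with no detection call, so no gene is called absent, and values of different genes are not set against each other. The groups were separated on the first principal component of all genes (34.8% of the variance), and arrays correlated with each other at 0.980 to 0.994 across probes. Each array was taken as 1 mouse, and precision is limited by having 5 arrays a group.

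**Figure D1:**
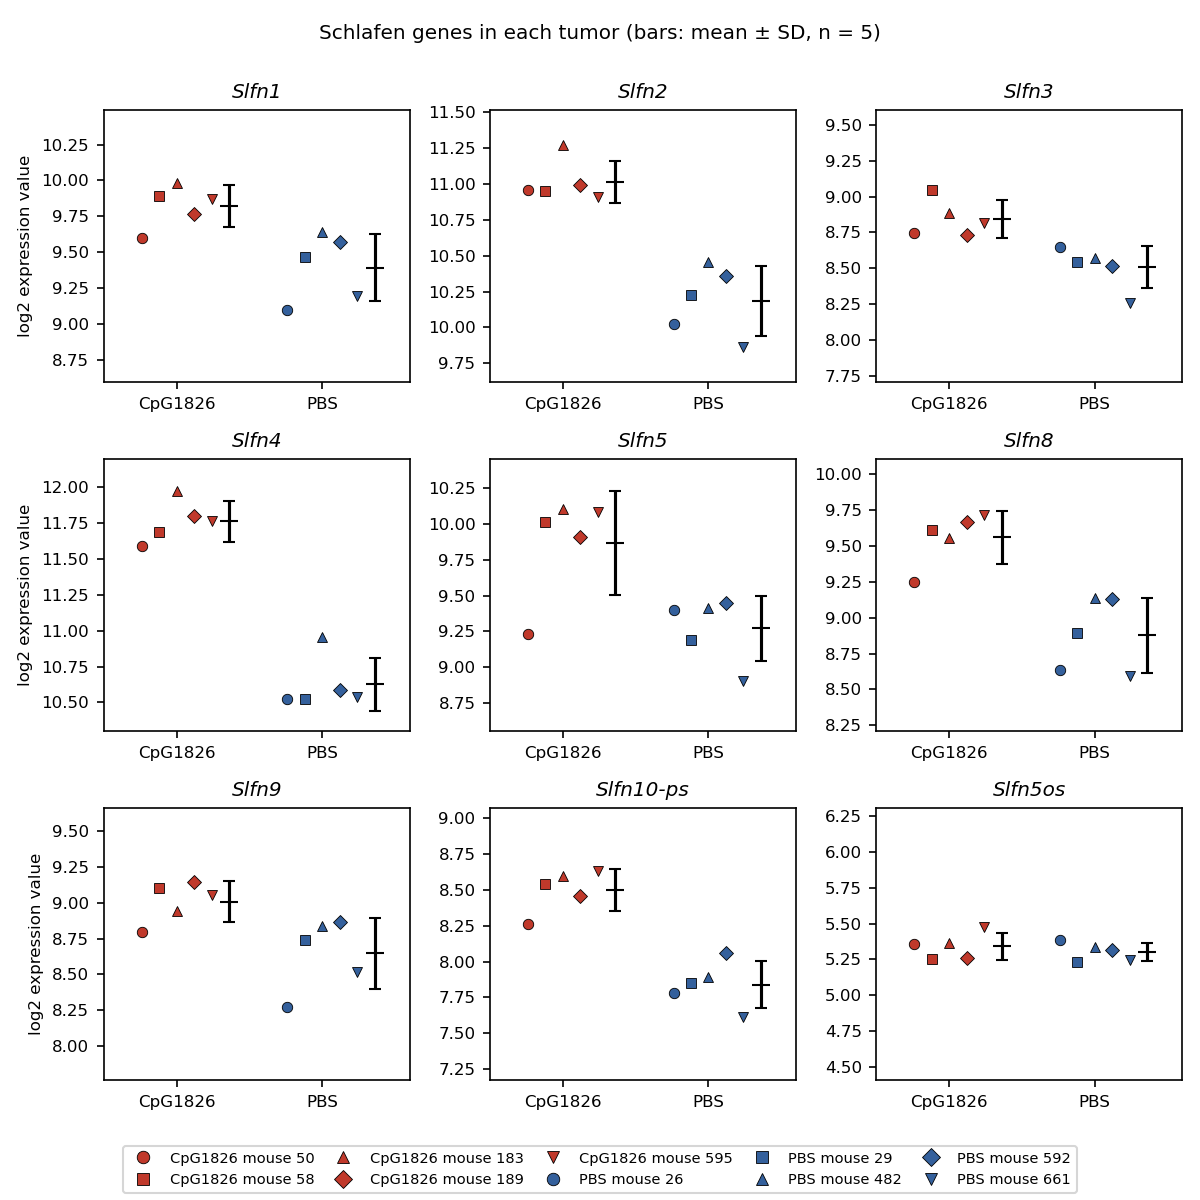
Log2 expression value (vertical axis, same span of values in each panel) of the 9 Schlafen genes in the 5 CpG1826 tumors (red, left) and the 5 PBS tumors (blue, right), with a symbol for each mouse and bars for the mean and SD. The Slfn4 groups lie farthest apart, the CpG1826 tumor of mouse 50 falls within the PBS range for Slfn5, and the Slfn5os groups overlap.

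All 9 genes lie in 1 cluster on chromosome 11 in the RefSeq gene table (assembly GRCm38.p6), in the order Slfn5os, Slfn5, Slfn9, Slfn8, Slfn10-ps, Slfn2, Slfn1, Slfn4 and Slfn3. Slfn14, the tenth gene of that cluster, is not analysed here. Of the 10 measured genes nearest to the cluster, 5 on each side, 0 passed the limma test and 1, Rffl, had an unadjusted p under 0.05, numbers that are near the shares of all genes (3.56% higher and 1.10% lower, and 15.6% at the unadjusted threshold). Their log2 fold changes ran between -0.12 for Mmp28, a matrix metalloproteinase, and 0.26 for Rffl, a ubiquitin ligase (limma adjusted p = 0.132). Rad51d, a DNA repair gene, differed by -0.06, and Ap2b1, a subunit of the clathrin adaptor, by -0.02 on the log2 scale. Slfnl1, a Schlafen-like gene outside the cluster and outside the rule, differed by -0.06 ± 0.08 (SE, limma adjusted p = 0.807).

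**Figure D2:**
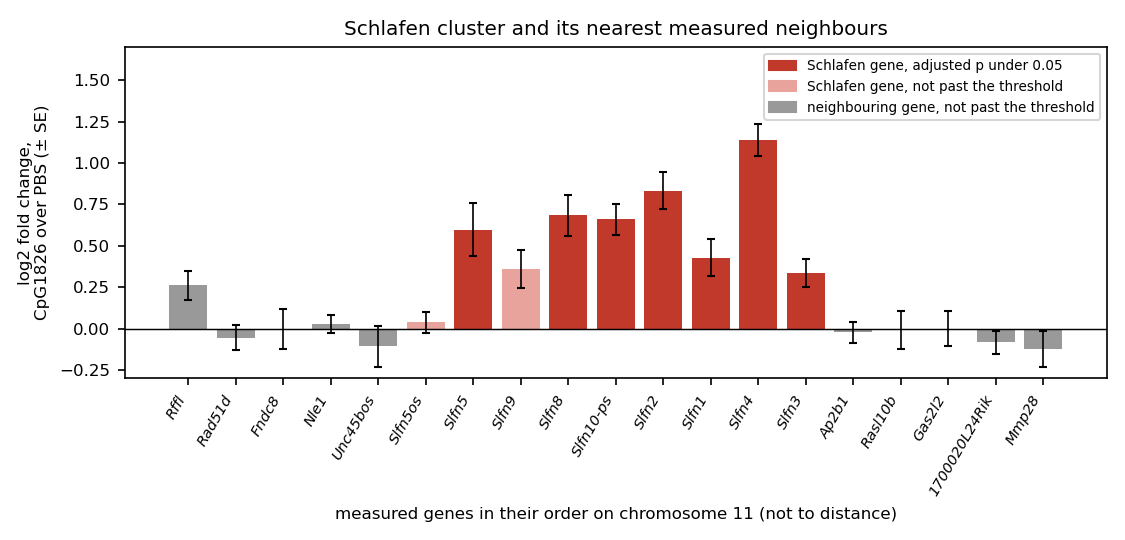
Log2 fold change, CpG1826 over PBS, with its SE (vertical axis) for the 9 Schlafen genes and the 5 nearest measured genes on each side, in chromosome order (horizontal axis, not to distance). Dark red bars passed the limma test, and no grey neighbouring gene did. The tallest bar is Slfn4 at 1.14 and the tallest neighbour is Rffl at 0.26.

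The stretch of 250 bases before the annotated start was searched for 2 short motifs on both strands, and 5 of these windows are shown because they belong to the most changed genes, Slfn4 and Slfn2, and to the genes that hold an interferon-type motif. Sequences are from RefSeq, build GRCm38.p6, printed 5′ to 3′ on the strand of the gene, and capitals mark matches to the core of the interferon-stimulated response element (ISRE), taken as a pair of GAAA separated by any 2 bases, or to the AP-1 motif, taken as TGA and TCA separated by any 1 base. The marked matches do not overlap. The windows are chr11:83174936-83175185 on the plus strand for Slfn4, chr11:83064862-83065111 on the plus strand for Slfn2, chr11:83020811-83021060 on the minus strand for Slfn8, chr11:82991831-82992080 on the minus strand for Slfn9 and chr11:82951852-82952101 on the plus strand for Slfn5.
Slfn4: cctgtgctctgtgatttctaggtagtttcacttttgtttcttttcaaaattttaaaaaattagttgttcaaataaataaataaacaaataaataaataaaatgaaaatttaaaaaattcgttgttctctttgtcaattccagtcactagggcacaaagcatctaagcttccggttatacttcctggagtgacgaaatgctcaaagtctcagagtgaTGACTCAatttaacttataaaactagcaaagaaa
Slfn2: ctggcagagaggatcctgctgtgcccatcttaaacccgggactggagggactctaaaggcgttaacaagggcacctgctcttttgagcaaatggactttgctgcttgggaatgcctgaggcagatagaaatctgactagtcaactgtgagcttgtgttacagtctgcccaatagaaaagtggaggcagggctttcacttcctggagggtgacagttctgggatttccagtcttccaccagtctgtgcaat
Slfn8: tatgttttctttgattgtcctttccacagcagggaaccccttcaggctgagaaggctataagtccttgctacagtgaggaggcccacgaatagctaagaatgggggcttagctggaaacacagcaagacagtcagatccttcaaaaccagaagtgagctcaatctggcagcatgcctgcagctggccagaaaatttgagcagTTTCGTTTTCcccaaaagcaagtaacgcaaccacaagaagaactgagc
Slfn9: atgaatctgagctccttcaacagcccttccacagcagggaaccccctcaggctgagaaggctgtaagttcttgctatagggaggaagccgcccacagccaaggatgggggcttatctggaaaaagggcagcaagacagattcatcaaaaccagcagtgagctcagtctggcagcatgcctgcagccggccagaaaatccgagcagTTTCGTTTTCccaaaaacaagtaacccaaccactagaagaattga
Slfn5: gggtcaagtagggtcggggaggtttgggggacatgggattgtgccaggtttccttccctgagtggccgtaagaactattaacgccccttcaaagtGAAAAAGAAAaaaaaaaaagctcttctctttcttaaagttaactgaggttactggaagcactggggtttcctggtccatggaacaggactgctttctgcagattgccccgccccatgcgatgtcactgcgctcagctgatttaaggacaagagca

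The ISRE core was found before Slfn5, Slfn8 and Slfn9, and not before the other measured members with a window, where these letters are absent from these 250 bases only. It lay 155 to 146 bases before the start of Slfn5, 45 to 36 before that of Slfn9 and 48 to 39 before that of Slfn8. Slfn8 and Slfn9 carry the same 10 letters there (TTTCGTTTTC, the motif read on the other strand), and their aligned windows were identical at 80.2% of positions. A second annotated start of Slfn8 gives a window that overlaps the first and holds the same match. Of all 32851 windows of this length in the table, 2.98% hold the ISRE core. The AP-1 motif was found 34 to 28 bases before the start of Slfn4 and before no other measured member. It is held by 6.75% of all windows and by 7.82% of genes. The half-sites of these motifs are textbook forms. No window of Slfn10-ps was used. A match is a description of the letters, and binding was not measured.

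Among the short forms, Slfn2 rose and Slfn1 was close to the threshold. Slfn2 keeps T cells and monocytes quiescent in mice. Slfn2 had values of 10.96, 10.95, 11.27, 10.99 and 10.91 in CpG1826 tumors (mice 50, 58, 183, 189 and 595), against 10.02, 10.22, 10.46, 10.36 and 9.86 in PBS tumors (mice 26, 29, 482, 592 and 661). The groups were separated by the gap between mouse 595 and PBS mouse 482, and the CpG1826 tumor of mouse 183 stood above the other CpG1826 tumors. Slfn2 was 1.78-fold higher (95% confidence interval 1.51 to 2.10, limma adjusted p = 0.000527). Slfn1, a growth-restraining gene of thymocytes, had 9.60, 9.89, 9.98, 9.76 and 9.87 in CpG1826 tumors, against 9.10, 9.46, 9.64, 9.57 and 9.19 in PBS tumors, in the same order of mice. The CpG1826 tumor of mouse 50 lay below the PBS tumor of mouse 482, so the groups overlapped. Slfn1 was 1.35-fold higher (1.14 to 1.59, limma adjusted p = 0.0429). Slfn1 no longer passed when PBS mouse 26, 29 or 661, or mouse 58, 183, 189 or 595 of the CpG1826 group, was left out, with log2 fold changes of 0.36 to 0.45 in those fits (limma adjusted p = 0.0613 to 0.111).

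Of the intermediate forms, Slfn4 showed the greatest rise among the 9 genes and Slfn3 the smallest rise that passed. Slfn4 is induced in activated macrophages and marks a myeloid population in the inflamed mouse stomach. Slfn4 had 11.59, 11.69, 11.97, 11.80 and 11.76 in CpG1826 tumors, against 10.53, 10.52, 10.96, 10.59 and 10.54 in PBS tumors. The groups were separated by more than the whole range of either group, and the highest PBS tumor was that of mouse 482. Slfn4 averaged 11.76 ± 0.14 in CpG1826 tumors and 10.63 ± 0.19 in PBS tumors (SD, n = 5 each), a difference of 1.14 ± 0.10 on the log2 scale (SE), which is 2.20-fold (1.90 to 2.54, limma adjusted p = 1.64e-05). By absolute log2 fold change it was number 100 of the 19938 genes. Slfn3, studied in T cells and in differentiation of the rodent gut, had 8.74, 9.05, 8.88, 8.73 and 8.82 in CpG1826 tumors, against 8.65, 8.54, 8.57, 8.52 and 8.26 in PBS tumors. The groups of Slfn3 did not overlap, but CpG1826 mouse 189 and PBS mouse 26 lay close together. Slfn3 was 1.26-fold higher (1.11 to 1.44, limma adjusted p = 0.0429). Slfn3 no longer passed when PBS mouse 29, 482, 592 or 661, or mouse 50, 58, 183 or 595 of the CpG1826 group, was left out, with log2 fold changes of 0.27 to 0.36 in those fits (limma adjusted p = 0.0520 to 0.101).

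Of the long forms and the related transcript Slfn10-ps, Slfn8 and Slfn10-ps rose with groups that did not overlap. Slfn8, a long form with a helicase-like part, had 9.25, 9.62, 9.56, 9.66 and 9.72 in CpG1826 tumors, against 8.63, 8.89, 9.14, 9.13 and 8.59 in PBS tumors. Slfn10-ps, marked as a pseudogene by its symbol, had 8.26, 8.54, 8.60, 8.46 and 8.63 in CpG1826 tumors, against 7.78, 7.85, 7.89, 8.06 and 7.61 in PBS tumors. For both genes the CpG1826 tumor of mouse 50 was the lowest of its group and still above every PBS tumor. Slfn8 was 1.61-fold higher (1.34 to 1.93, limma adjusted p = 0.00504) and Slfn10-ps 1.58-fold higher (1.38 to 1.81, limma adjusted p = 0.000778).

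Slfn5 rose in the fit with all tumors, but mouse 50 stood apart. In human cells SLFN5 is a nuclear protein. Slfn5 had 9.23, 10.02, 10.10, 9.91 and 10.09 in CpG1826 tumors, against 9.40, 9.19, 9.41, 9.45 and 8.90 in PBS tumors. The tumor of mouse 50 fell inside the PBS range, and the other CpG1826 tumors lay above it. Slfn5 was 1.51-fold higher (1.19 to 1.92, limma adjusted p = 0.0492). Without CpG1826 mouse 50 its log2 fold change was 0.76 (limma adjusted p = 0.00173). It was 0.51 to 0.64 when any of the 5 PBS mice, or mouse 58, 183, 189 or 595 of the CpG1826 group, was left out, and Slfn5 did not pass in any of these 9 fits (limma adjusted p = 0.0609 to 0.125).

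Slfn9 and Slfn5os did not pass. Slfn9, the neighbour of Slfn8 in sequence and position, had 8.79, 9.10, 8.94, 9.15 and 9.05 in CpG1826 tumors, against 8.28, 8.74, 8.84, 8.87 and 8.52 in PBS tumors. CpG1826 mouse 50 lay below PBS mice 482 and 592, and the other CpG1826 tumors lay above all PBS tumors. Slfn9 differed by 0.36 ± 0.11 on the log2 scale (SE, 95% confidence interval 0.12 to 0.60, unadjusted p = 0.0069 and adjusted p = 0.106 by limma). Slfn5os is a long non-coding transcript annotated on the strand opposite Slfn5. Slfn5os averaged 5.34 ± 0.09 in CpG1826 tumors and 5.30 ± 0.06 in PBS tumors (SD, n = 5 each), a log2 difference of 0.04 (-0.10 to 0.18, limma adjusted p = 0.849). Its interval lies below that of Slfn5, but the difference between the 2 genes was not tested. Probe sequences were not used here, so cross-hybridization among these close paralogs, among them Slfn8 and Slfn9, was not tested.

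**Figure D3:**
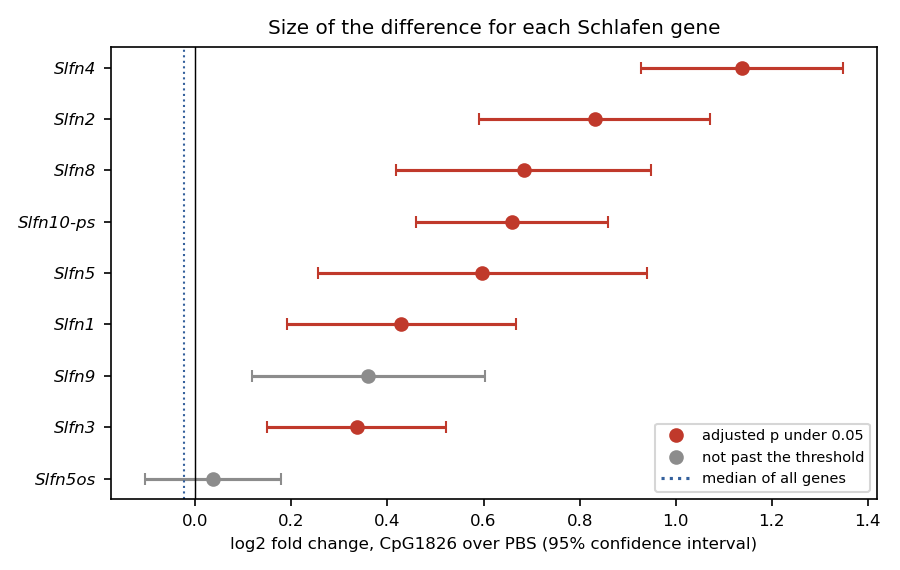
Log2 fold change, CpG1826 over PBS, with its 95% confidence interval (horizontal axis) for the 9 Schlafen genes, ordered by size, with the dotted line at the median of all genes (-0.02). Red points passed the limma test and grey points did not. The intervals of neighbouring genes in this order overlap.

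In order of size the log2 fold changes were 1.14 for Slfn4, 0.83 for Slfn2, 0.68 for Slfn8, 0.66 for Slfn10-ps, 0.60 for Slfn5, 0.43 for Slfn1, 0.36 for Slfn9, 0.34 for Slfn3 and 0.04 for Slfn5os. Each gene's 95% confidence interval overlapped that of the next in the order. The interval of Slfn4 (0.93 to 1.35) lay above those of Slfn10-ps (0.46 to 0.86), Slfn1 (0.19 to 0.67), Slfn9 (0.12 to 0.60) and Slfn3 (0.15 to 0.52). No test of a difference between members was made.

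Tumors that were low or high for 1 member tended to be so for several. Of the 8 members other than Slfn5os, the CpG1826 tumor of mouse 50 was the lowest of its group for 6, and the PBS tumor of mouse 661 was the lowest of its group for 5. Over these 8 genes the mean log2 value was 9.55 in CpG1826 mouse 50, against 9.81 to 9.91 in the other CpG1826 tumors. In PBS tumors it was 8.94 in mouse 661, 9.05 in mouse 26, 9.18 in mouse 29, 9.32 in mouse 592 and 9.36 in mouse 482. The mean of 37 measured type I interferon-stimulated genes, a list without Schlafen genes, put the PBS tumors in the same order, at 9.55, 9.59, 9.72, 9.90 and 9.95. That mean was also lowest in mouse 50 among CpG1826 tumors, at 9.97 against 10.26 to 10.36 in the others, while the order of the other CpG1826 tumors was not the same. Slfn4 did not follow this order in PBS tumors: it was 10.52 to 10.59 in mice 26, 29, 592 and 661. Nor were Slfn3 and Slfn5 low in PBS mouse 26, where Slfn3 was 8.65, the highest PBS value, and Slfn5 was 9.40.

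**Figure D4:**
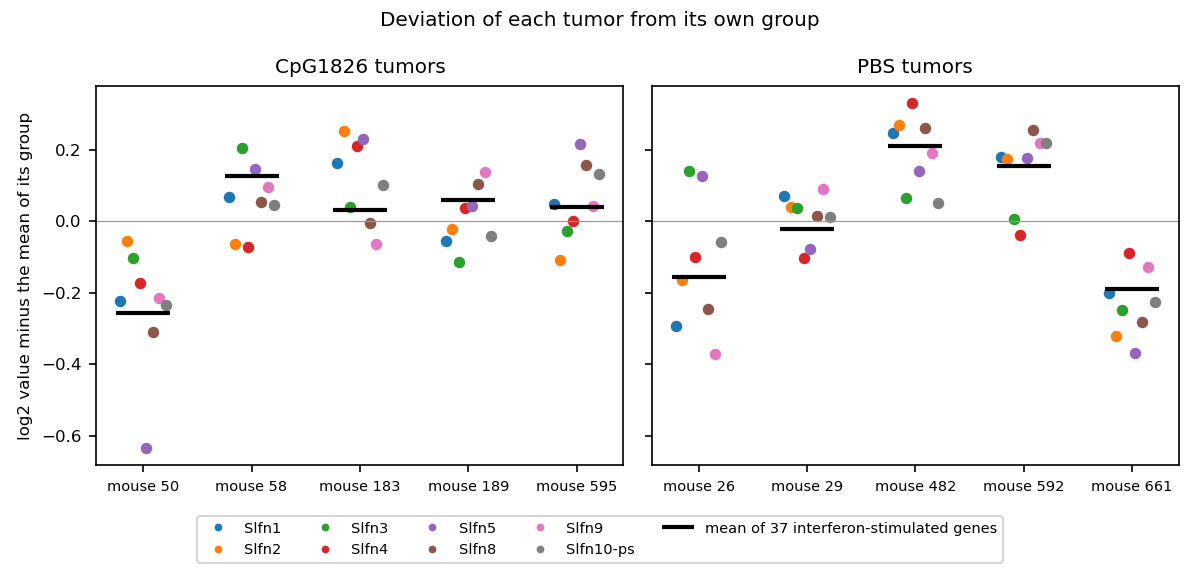
Log2 value of 8 Schlafen genes (coloured points) and of the mean of 37 interferon-stimulated genes (black bars) in each tumor, as the difference from the mean of its own group (vertical axis), for CpG1826 tumors (left) and PBS tumors (right). Mouse 50 lies below the mean of its group for all 8 genes and for the interferon-stimulated genes, and mouse 661 likewise among PBS tumors.

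T cell, NK cell, and monocyte and macrophage markers were low in mouse 50 and mouse 661 too, and other marker lists were not low in both. The mean log2 value of 11 measured T cell markers was 6.75 in CpG1826 mouse 50, against 7.10 to 7.34 in the other CpG1826 tumors, and 6.80 in PBS mouse 661, against 7.34 to 7.40 in the other PBS tumors. The mean of 13 monocyte and macrophage markers was 9.76 in CpG1826 mouse 50, against 9.82 to 10.13 in the others, and 9.69 in PBS mouse 661, against 9.97 to 10.07 in the others. The mean of 8 NK cell markers was 6.30 in CpG1826 mouse 50, against 6.88 to 7.39 in the others, and 6.17 in PBS mouse 661, against 6.71 to 7.08 in the others. The fibroblast mean was also lowest in CpG1826 mouse 50, at 10.42 against 10.76 to 10.91 in the other CpG1826 tumors, as was the endothelial mean (7.15 against 7.20 to 7.48), and neither was lowest in PBS mouse 661. The B cell and dendritic cell means were the lowest of their group in neither tumor, and the neutrophil mean was the highest of its group in both. PBS mouse 26, which was low for the Schlafen and interferon-stimulated genes, was not low for the T cell or the monocyte and macrophage list: its T cell mean was 7.40, and its monocyte and macrophage mean lay above that of PBS mouse 482 (9.97). Its NK cell mean of 6.71 was the lowest PBS value after that of mouse 661, against 6.87 to 7.08 in the other PBS tumors. In bulk tumors fewer cells of a type and less RNA per cell cannot be told apart, and the part of these markers in the Schlafen values was not tested.

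Between the groups, neutrophil and keratinocyte markers were higher in CpG1826 tumors in part, and T cell markers did not pass. Over all genes, 3.56% passed as higher, 1.10% passed as lower and 15.6% had an unadjusted p under 0.05 (limma). Of the 11 T cell markers, 0 passed the limma test and 2 had an unadjusted p under 0.05, with a median log2 fold change of -0.11. Among them Cd3g, a chain of the T cell receptor complex, differed by -0.51 and Cd8a by -0.29 on the log2 scale, and neither passed. Of 13 monocyte and macrophage markers, 2 rose (1 when PBS mouse 26, 29, 482 or 661, or mouse 58, 183 or 595 of the CpG1826 group, was left out) and 3 fell (2 in every fit without 1 mouse other than that without CpG1826 mouse 595, since Ccr2, a chemokine receptor, then lost its call at a limma adjusted p of 0.0516 to 0.127), with Cd14, a TLR co-receptor, 4.33-fold higher and Cx3cr1, the fractalkine receptor, 2.32-fold lower. The mean of this list was 9.76 to 10.13 in CpG1826 tumors and 9.69 to 10.07 in PBS tumors. Of 14 neutrophil markers, 6 rose and 0 fell, among them S100a8, an alarmin, 4.37-fold, and Cxcr2, a chemokine receptor, 3.11-fold. The neutrophil mean was 5.99 to 6.31 in CpG1826 tumors and 5.51 to 5.73 in PBS tumors, so it moved with the group. The median log2 fold change of this list was 0.12. Of the 14, 6 had mean values below the lower quartile of all genes: Ly6g, Ngp, Ltf and Mpo, which did not pass, and Mmp8 and Retnlg, which rose. Mmp9, Cebpe, Camp and Elane lay above that quartile and did not pass either. Retnlg no longer passed without PBS mouse 26, 29 or 482 or CpG1826 mouse 183 (limma adjusted p = 0.0653 to 0.0739). Of 19 keratinocyte markers, 15 rose and 0 fell, among them the keratins Krt6b, 10.93-fold, and Krt1, 8.35-fold. The keratinocyte mean was 6.85 to 7.78 in CpG1826 tumors and 5.31 to 5.81 in PBS tumors. The part of neutrophil and skin transcripts in the Schlafen differences was not tested. Mouse 50 had the highest neutrophil mean of all tumors (6.31) and the lowest Slfn4, Slfn8 and Slfn10-ps values among CpG1826 tumors. CpG1826 mouse 183 had the next highest neutrophil mean (6.25) and the highest Slfn4 and Slfn2 values of all tumors (11.97 and 11.27). These are single tumors, and mouse 50 also had the lowest T cell, NK cell, and monocyte and macrophage means of its group. No relation between these values was tested.

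The remaining cell type lists changed in few members, where 3.56% of all genes passed as higher and 1.10% as lower. Of 8 NK cell markers, 1 rose, Gzmb (2.23-fold), and of 10 dendritic cell markers, 1 rose, Ccr7 (1.69-fold), a homing receptor of mature dendritic cells. Of 8 endothelial markers, 1 fell, Tek, which kept its call only without PBS mouse 29 or 592 among the fits without 1 mouse (limma adjusted p = 0.0507 to 0.117 in the others). Of 8 fibroblast and 5 B cell markers, 0 passed the limma test, and 2 and 1 of them had an unadjusted p under 0.05, against 15.6% of all genes. Log2 fold changes were 0.09 for Dcn and -0.28 for Col1a1 of the fibroblast list. They were -0.23 for Cd79b and -0.22 for Cd22 of the B cell list. Leaving out CpG1826 mouse 50 added Prf1 of the NK list, Pecam1 of the endothelial list and Lum of the fibroblast list as higher (limma adjusted p = 0.0183, 0.0292 and 0.0385). Without CpG1826 mouse 189 the dendritic cell gene Clec9a passed as lower (0.0182), and without PBS mouse 26 so did the fibroblast gene Pdgfrb (0.0374). These 5 genes were named after their values were seen. Of 12 colon epithelial markers, 2 rose, Cdh1 and Epcam (Epcam kept its call only without PBS mouse 26 or CpG1826 mouse 183, with limma adjusted p = 0.0566 to 0.126 in the other such fits), and 4, Vil1, Krt19, Krt20 and Cdh17, had mean values below the lower quartile of all genes. The origin of the line was taken from the labels.

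Among genes that lead from TLR9 to interferon-stimulated transcription, Stat2, Irak3 and Irak2 rose. Of 26 measured interferon ligands, receptor chains, kinases, STAT and IRF factors, 1 rose, Stat2 (1.42-fold, 1.20 to 1.67, limma adjusted p = 0.0167), and 0 fell, close to the 3.56% and 1.10% of all genes. An unadjusted p under 0.05 was found for 8 of the 26, against 15.6% of all genes. Mean values below the lower quartile of all genes, where differences can be compressed, were found for 8, not the same set. Ifnb1 was among these dim genes. Ifnb1, which encodes interferon-β, differed by 0.19 ± 0.10, Ifnar1, a receptor chain, by 0.14 ± 0.08, and Irf9, a DNA-binding factor of the interferon response, by 0.25 ± 0.08 (log2, SE), and none passed (limma adjusted p = 0.382, 0.447 and 0.102). Irf7, an interferon-induced regulator, differed by 0.36 ± 0.11 (limma adjusted p = 0.0959) and passed without CpG1826 mouse 50 (0.45, limma adjusted p = 0.0217). Isg15 had no probe of its own and is not analysed here. Of 14 measured genes of the TLR9 receptor and its relay, 2 rose, Irak3 (2.23-fold), an inhibitory IRAK, and Irak2 (1.28-fold). Irak2 no longer passed when PBS mouse 26, 482, 592 or 661, or mouse 50, 183, 189 or 595 of the CpG1826 group, was left out (log2 fold change 0.30 to 0.38, limma adjusted p = 0.0514 to 0.104). Tlr9 (log2 fold change -0.24) and the adaptor Myd88 (0.16) did not pass.

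Interferon-stimulated genes and NF-κB target genes were higher in CpG1826 tumors, as Schlafen genes were. Among the 37 measured genes induced by type I interferon, 21 passed as higher and 0 as lower, with a median log2 fold change of 0.44 and a largest value of 1.27 for Mx2, an antiviral GTPase. With PBS mouse 26 or 661 left out 12 of them passed, and with PBS mouse 29 or CpG1826 mouse 58 left out 13 did. Rsad2, which encodes the antiviral enzyme viperin, stood at 1.04, Mx1 at 0.92 and Cmpk2, a nucleotide kinase, at 0.91. Of 24 measured immediate NF-κB target genes, 24 rose, with a median log2 fold change of 0.90. In the fits without 1 mouse 19 to 23 of them passed, 19 without PBS mouse 29 or 482 and 23 without CpG1826 mouse 58. Over all genes, 3.56% passed as higher. Il12b, a subunit of IL-12, was 9.58-fold, Il1a 7.04-fold, the chemokine Ccl3 6.21-fold and Il1b 4.85-fold higher. The median of the 9 Schlafen genes (0.60) lay between these medians, a position that was not tested.

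For each Schlafen gene that rose, the 5 genes with the most similar profile were found among 14954 genes with a mean above the lower quartile, as the root mean square (RMS) difference of log2 values over the 10 tumors after each gene was centred on its mean. This measure includes the difference between the groups and describes these tumors only. Nearest to Slfn1 were Trim30a (RMS difference 0.058) and Dhx58 (0.068), which encodes the RNA sensor LGP2, followed by Ifi35, Stxbp3 and Znfx1. Nearest to Slfn8 were Daxx (0.10), Trim30d (0.10), Ifih1, which encodes the RNA sensor MDA5 (0.11), Ifi203 (0.11) and its neighbour in the cluster, Slfn10-ps (0.11). Nearest to Slfn5 were Ppm1k (0.13) and Mctp2 (0.14), followed by Ifit2, Jak2 and Ifit3, of which Ifit2 and Ifit3 are antiviral genes. Slfn10-ps was nearest to Jak2, a cytokine receptor kinase (0.076), Arhgap26, Ifit1bl2, Cflar and Car13.

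Slfn4 and Slfn2, the members with the largest rise, shared 1 of their nearest genes, Rin2. Slfn4 was nearest to Rnf149 (RMS difference 0.13), Mxd1, a MAX partner (0.13), Rin2 (0.14), Socs3, an inhibitor of cytokine signalling (0.15), and Itga2 (0.15). Slfn2 was nearest to Nupr1 (0.088), Rin2 (0.093), Oasl1, an interferon-stimulated gene (0.099), Bcl6 and Casp4. The closest Schlafen gene to Slfn4 was Slfn2, with an RMS difference of 0.20, at rank 29 among the candidates. Slfn3 was nearest to Eda2r (0.059), Jarid2 (0.077), Oxr1, Anp32-ps and Plag1.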

How the data were processed

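Per the labels, total RNA of 10 frozen tumors, 1 array each, was labelled with biotin by a whole-transcript Affymetrix kit. The deposited table holds log2 expression values, read as log2 from their range of 2.03 to 14.70, and its array medians of 6.47 to 6.53 show that the authors had normalized it between arrays. R 2.7.1 and limma are named in the submitters' processing notes with no role, with methods for background, summarization and normalization not given in the sources used here. Where most genes shift together, normalization between arrays can remove that shift, and differences of dim probes can be compressed.

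Of 35512 probes, 21789 carry 1 gene symbol in the platform annotation, 1621 several and 12102 none, and 0 of those with several name a Schlafen gene. For a gene with several probes the one of highest mean was used, which gave 19938 genes, of which 19919 symbols are in the RefSeq table of GRCm38.p6, used for names, gene order and promoter sequence. The test was the two-sided moderated test of limma 3.58.1 (R 4.3.3; lmFit, eBayes), adjusted by Benjamini-Hochberg over all genes, and an adjusted p under 0.05 counted as passing. Each fold change is CpG1826 over PBS. No scan date or slide was used.

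The members, the gene lists and the tests were chosen with earlier results of these data known. Named genes are all members, the 5 nearest profiles of each member that rose, the 5 nearest measured genes on each side, up to 4 called genes per pathway list and 2 per cell type list (the 2 with the highest level where none was called), and Ifnb1, Tlr9, Myd88, Stat2, Irf9, Irf7 and Ifnar1. Others named as examples (Slfnl1, Isg15 and the remaining marker genes) were picked with their values known. The alternatives tried were quantile normalization of the table, centring on array medians, filters on dim genes, a trended and robust prior, array weights, other uses of the probes, an adjusted p under 0.01, limma treat with a 1.5-fold minimum, and leaving out each mouse, which was added for the gene lists after the data were seen.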

Additional observations from a re-analysis of the deposited data

Results flagged for a closer look

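In 3 of the 18 sets of 5 tumors (9 genes in both groups), 1 tumor lay far from the others of its group, where chance gives about 1 in 20 sets. The gap to the nearest other tumor was set against the whole range of the group, with a critical share of 0.71. Slfn5 was 9.23 in CpG1826 mouse 50, and the next CpG1826 tumor was at 9.91 (a share of 0.781). Slfn2 was 11.27 in CpG1826 mouse 183, and the next was at 10.99 (0.761). Slfn4 was 10.96 in PBS mouse 482, and the next PBS tumor was at 10.59 (0.846). Slfn2 and Slfn4 passed the limma test without these tumors as well, and the Slfn5 call without mouse 50 is given with its values.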

How the results depend on the processing

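No paired analysis was possible because the mouse numbers of the groups are not shared. The 9 Schlafen log2 fold changes gave 179 values over 20 alternatives, of which 144 kept their side of the threshold, 35 lost it and 0 changed direction. The 144 include every value of Slfn9 and Slfn5os, which had no call to lose, and the 35 all belong to genes that rose. Slfn2, Slfn4, Slfn8 and Slfn10-ps kept their calls without any 1 mouse, and Slfn9 and Slfn5os passed in none of the alternatives run for them. The number of Schlafen genes that rose was 7, and 4 to 6 without 1 mouse: it was 4 when PBS mouse 29 or 661, or mouse 58, 183 or 595 of the CpG1826 group, was left out. It was 4 at an adjusted p under 0.01, where 407 of all genes were higher and 64 lower. It was 1, Slfn4, with the 1.5-fold minimum, where 80 of all genes were higher and 2 lower. Slfn5 also lost its call with the trended and robust prior (limma adjusted p = 0.0523) and with every probe tested on its own (0.0513), and over all its alternatives without a left-out mouse its log2 fold change was 0.58 to 0.65. Over all genes 710 were higher and 220 lower. These were 558 to 667 and 121 to 209 without 1 mouse. The lower genes were 364 after a further quantile normalization and 338 with genes below the median level left out. The cause of these shifts was not tested, beyond the stricter thresholds and the smaller sets of genes or tumors that define them. With 5 tumors a group, the difference of Slfn9 (0.36 ± 0.11, log2, SE) was not resolved. The slightly smaller difference of Slfn3 (0.34 ± 0.09), with a smaller SE, passed in the fit with all tumors.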

Other observations

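Genes tied to known roles of Schlafen proteins were also counted, where 3.56% of all genes passed as higher and 1.10% as lower. Of 8 measured genes of transfer RNA cleavage and protection, a list that shares the OAS genes with the interferon list, 3 rose and 0 fell: Oas3 (1.48-fold), Oas2 (1.40-fold) and Oas1a (1.33-fold), synthetases of the activator of RNase L. The number was 1 without PBS mouse 26 or 661 or mouse 183 of the CpG1826 group. Oas3 and Oas1a were the genes that lost their call (limma adjusted p = 0.0504 to 0.0646 where lost). The median log2 fold change of this list was 0.04, and its measured members outside the OAS genes (Ang4, Rnh1, Trdmt1, Nsun2 and Elac2) did not pass. Of 11 measured genes of T cell quiescence and growth control, 2 rose, Foxp1 (1.47-fold), a factor of naive T cell quiescence, and Btg1 (1.29-fold), an antiproliferative gene, and 0 fell, with a median of 0.13.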
